A study of Mus musculus with 6 samples.

Results

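Carbonic anhydrase transcripts were described for 8 genes, Car2, Car3, Car4, Car5b, Car8, Car12, Car14 and Car15, which were listed by symbol out of 28208 genes shared by every count matrix. The list was drawn up with results of these data known. Car15 was placed on it for a lower level in tolerized kidneys, so the levels of Car15 are given as a description and without a test. The other 7 members were tested, and 8 further carbonic anhydrase genes were read as the remainder of the family.

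Carbonic anhydrases speed up the reversible conversion of CO2 and water into bicarbonate and a proton. In the proximal tubule, an enzyme on the brush border and another in the cytosol take part in the recovery of filtered bicarbonate, and in intercalated cells the cytosolic enzyme feeds the proton pump of acid-secreting cells and the chloride/bicarbonate exchanger of bicarbonate-secreting cells. Car2 and Car3 encode cytosolic proteins, Car5b a mitochondrial enzyme, Car4 and Car15 proteins held on the outer cell surface by a lipid anchor, and Car12 and Car14 enzymes that span the membrane. Car8 encodes a related protein without catalytic activity.

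Single cells of 6 mouse kidneys were read, with 1 library per kidney and 2 kidneys per group. Naive kidneys came from untransplanted B6 (C57BL/6J) mice of 10 to 12 weeks of age. Rejecting and tolerized kidneys were BALB/c kidneys, from mice of 6 to 7 weeks that could be male or female. Donor sex was not taken into account here. These kidneys had been placed in B6 male recipients whose own kidneys had both been removed. Rejecting and tolerized kidneys alike were harvested on day 15. Recipients of tolerized kidneys had also received BALB/c splenocytes treated with the crosslinker ECDI on day -7 and day 1, and recipients of rejecting kidneys had not. Rejecting and tolerized kidneys therefore shared strain, age, surgery and harvest day. Naive kidneys differed from both in strain, age, transplantation and in the gene list used for counting (28692 against 31053 features), and these cannot be told apart in any comparison with naive kidneys.

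The matrices held between 34874702 and 96803926 unique molecular identifiers (UMIs) per kidney, and 5608 to 10483 cells per kidney were kept. The lowest count in a cell past the filters was 1538 and 1342 UMIs in naive kidneys and 500 to 502 in transplanted ones. Naive libraries shared 111 barcodes with each other, transplanted libraries 18 to 35 per pair, and a naive and a transplanted library 0 to 4. Whether library preparation or cell calling differed for naive kidneys was not tested. Such a difference could not be told apart from the others in comparisons with naive kidneys. Tubular cells were grouped by marker genes into clusters like proximal tubule, thick ascending limb, distal convoluted tubule, collecting duct and, in 1 cluster, intercalated cells (X-like in each case), named below by the segment alone. Intercalated cells were then taken as cells of any distal cluster with at least 2 UMIs of Atp6v1g3 and Atp6v0d2 together, which encode subunits of the proton pump, and the remaining collecting duct cells were called principal cells. Proximal tubule cells numbered 1145 to 4824 per kidney, thick ascending limb cells 204 to 464, distal convoluted tubule cells 148 to 652, principal cells 43 to 328 and intercalated cells 53 to 126. Except in principal cells, the median share of mitochondrial UMIs was higher in both naive kidneys than in any transplanted kidney. In the thick ascending limb it was 36.8% and 37.9% in naive and 24.3% to 30.8% in transplanted kidneys. Levels are the UMIs of a gene in every 1000000 UMIs of that segment and kidney (CPM), and every list of values runs from naive 1 and 2 through rejecting 1 and 2 to tolerized 1 and 2.

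The markers given here were among those used to name the clusters, so their levels are no test of the names. Umod lay between 13069 and 16281 CPM in the thick ascending limb and Aqp2 between 5514 and 9889 CPM in principal cells. Slc12a3 lay between 2913 and 8104 CPM in the distal convoluted tubule, and Slc34a1 between 2480 and 3130 CPM in the proximal tubule. Umod was also found in distal convoluted tubule cells, at 3213 and 3996 CPM in naive kidneys (cluster 18). In transplanted kidneys it was 2434 to 4273 CPM there (cluster 25). Different clusters held most naive and most transplanted cells of the proximal tubule (clusters 0, 4, 11 and 13 against 2, 5, 8, 12 and 15) and of the distal convoluted tubule (18 against 25, with 26 in both). For the thick ascending limb, 1 cluster held all cells so named, from all kidneys. Cluster 14, tied between thick ascending limb and distal convoluted tubule markers, was left out of both segments. It held 0 and 4 naive cells and 97 to 513 cells of each transplanted kidney. Collecting duct cells, from which principal cells were taken, lay in clusters 22 and 30, and cluster 30 held 9 and 2 cells of the naive kidneys, 25 and 33 of the rejecting kidneys and 63 and 127 of the tolerized kidneys, beside 326 and 329, 21 and 33, and 77 and 215 in cluster 22. Transcripts of 9 leukocyte genes were more abundant in the tubular segments of transplanted kidneys, with a summed level of 10.8 to 65.2 CPM in naive segments, 230 to 5616 CPM in rejecting segments and 156 to 5716 CPM in tolerized segments. Cd74 made up most of that sum in the proximal tubule, and Cd3e was at 0 in 9 of 10 naive segment values. The part of these transcripts in the differences given below was not tested.

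Each member had its own distribution along the tubule. The median Car2 level over the 6 kidneys was 1232 CPM in intercalated cells, 868 CPM in principal cells, 304 CPM in the proximal tubule and 248 CPM in the thick ascending limb. The ranges of the first pair and of the second pair overlapped, and principal cells lay above the proximal tubule in 6 of 6 kidneys with no overlap. Car12 was highest in intercalated cells (median 540 CPM) without overlap with the proximal tubule (103 CPM), and Car14 was highest in the proximal tubule (63.0 CPM) without overlap with any other segment. Car4 was higher in the proximal tubule than in the thick ascending limb in 6 of 6 kidneys (medians 92.7 and 54.7 CPM), although the 2 ranges overlapped. Car5b was led by the proximal tubule (69.1 CPM) and principal cells (34.1 CPM), with overlapping ranges, and Car8 by the distal convoluted tubule (6.44 CPM) and the thick ascending limb (4.11 CPM), likewise overlapping. In both naive kidneys the order of each of these pairs was the other way round, with Car5b at 28.0 and 27.8 CPM in principal cells against 18.6 and 23.1 CPM in the proximal tubule. Naive Car8 was 18.7 and 20.2 CPM in the thick ascending limb against 9.16 and 12.8 CPM in the distal convoluted tubule.

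**Figure D1:**
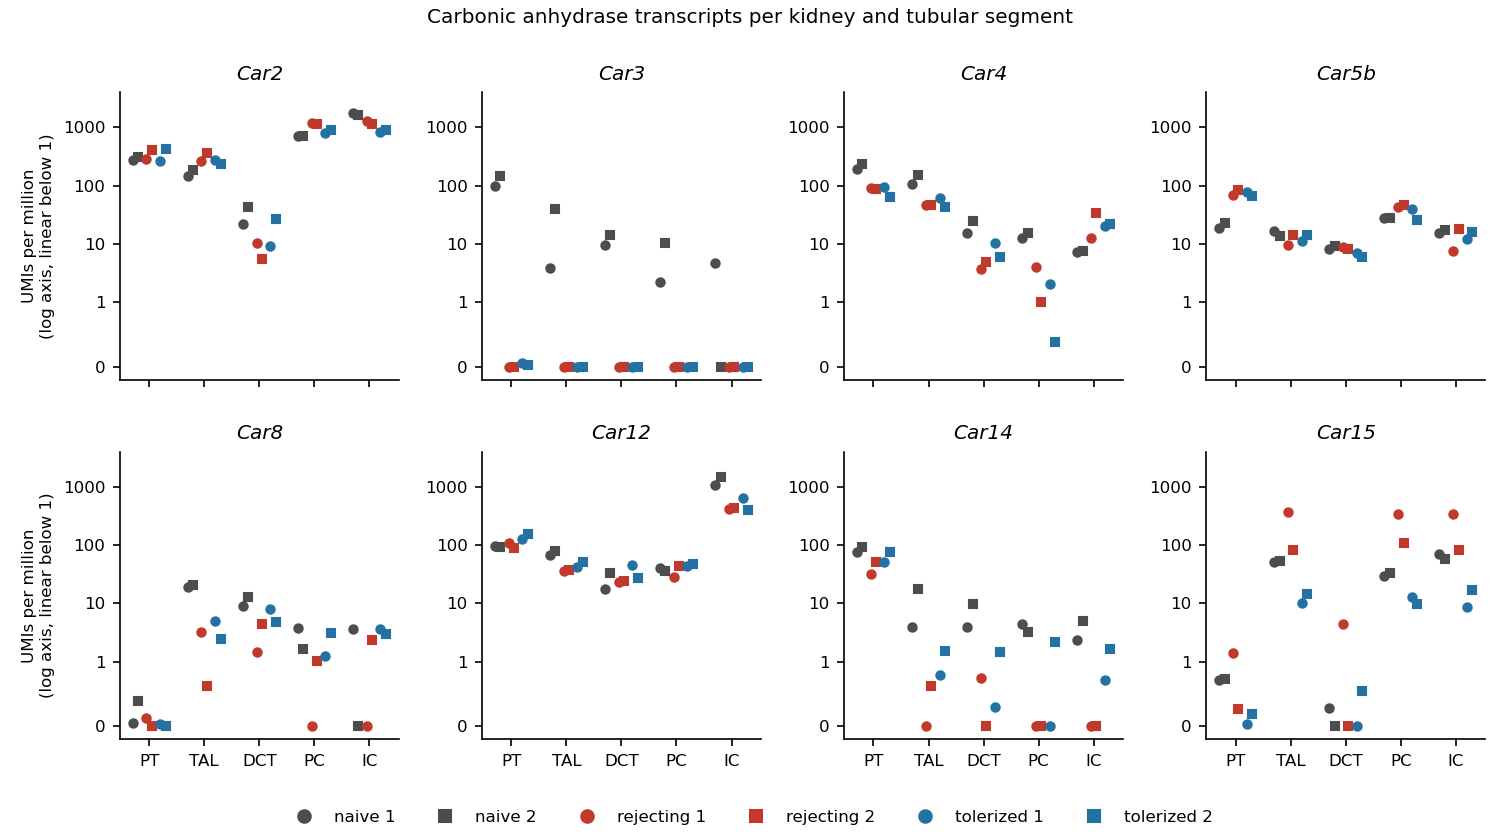
Level of each of the 8 carbonic anhydrases (CPM, log axis that is linear below 1) in the proximal tubule, thick ascending limb, distal convoluted tubule, principal and intercalated cells, with 1 point per kidney coloured by group. Car12 is highest in intercalated cells and Car14 in the proximal tubule, Car15 is spread most between groups in the 3 segments that hold it, and Car3 is near 0 in all transplanted kidneys.

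Car15, at chr16:17835276-17838364 on the minus strand of mm10, was found in the thick ascending limb, principal cells and intercalated cells. In the thick ascending limb its level was 51.6 and 52.5 CPM in the naive kidneys, 363 and 81.3 CPM in the rejecting kidneys, and 9.99 and 14.5 CPM in the tolerized kidneys. These levels rest on 66, 39, 562, 131, 38 and 105 UMIs in the same order. Both tolerized kidneys lay below both naive kidneys, and both naive kidneys lay below both rejecting kidneys.

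Principal cells held 29.1 and 32.7 CPM of Car15 in the naive kidneys, 347 and 108 CPM in the rejecting kidneys, and 12.9 and 9.87 CPM in the tolerized kidneys. Intercalated cells held 71.4 and 57.7 CPM, 342 and 81.9 CPM, and 8.53 and 17.2 CPM. The order of the groups was the same in all 3 segments and no groups overlapped. For intercalated cells this depended on which gate-positive cells were taken. In those of the intercalated cluster alone, the lower rejecting kidney was at 0.61 times the higher naive kidney, and tolerized kidneys stayed lowest. Among the kidneys with at least 30 principal cells in cluster 22, Car15 there was 29.8 and 32.2 CPM in naive kidneys, 71.8 CPM in rejecting kidney 2, and 9.73 and 7.12 CPM in tolerized kidneys. Outside these segments Car15 was scarce, at 0.03 to 1.41 CPM in the proximal tubule, at most 4.45 CPM in the distal convoluted tubule, and between 0 and 6.93 CPM in T cells, B cells, macrophages and endothelium.

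Fitted over all kidneys, the log2 fold change of Car15 in tolerized against rejecting kidneys was -4.12 in the thick ascending limb, -4.16 in principal cells and -3.86 in intercalated cells. The pooled standard deviation of log2 CPM within the rejecting and tolerized groups was 1.11, 0.86 and 1.15 in the same order. Rejecting kidney 1 was 3.21 to 4.47 times above rejecting kidney 2 in these segments, a spread larger than that between the naive or between the tolerized kidneys. Without rejecting kidney 1 the log2 fold changes were -2.63, -3.18 and -2.51. Even the lower rejecting kidney was 5.61 times above the higher tolerized kidney in the thick ascending limb, 8.41 times in principal cells and 4.75 times in intercalated cells. In the intercalated cluster alone it was 2.85 times above. Against naive kidneys, the fitted values in the thick ascending limb were 1.99 for rejecting and -2.13 for tolerized kidneys.

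Car15 UMIs were detected in a minority of thick ascending limb cells of each kidney, and in up to 53.0% of principal cells. A Car15 UMI was found in 19.7% and 13.2% of naive, 34.1% and 22.3% of rejecting, and 8.43% and 14.7% of tolerized thick ascending limb cells, and the largest count in 1 cell was 52 in rejecting kidney 1 and at most 9 in the other kidneys. Because cells differed in depth, each cell was also thinned to 1000 UMIs, leaving out shallower cells (in the thick ascending limb 244 of 258 and 206 of 229 cells of the rejecting and 325 of 344 and 452 of 464 cells of the tolerized kidneys remained, and all naive ones), after which the shares in the thick ascending limb were 5.15% and 4.41%, 19.3% and 8.25%, and 1.54% and 0.88%. In principal cells, the thinned shares were 1.83% and 4.0% for naive, 21.4% and 10.6% for rejecting, and 1.46% and 0.97% for tolerized kidneys. Without thinning, these were 12.2% and 14.5%, 44.2% and 53.0%, and 17.4% and 13.1%. Rejecting kidneys had the highest shares in both segments and on both scales, whereas tolerized kidneys lay below naive kidneys only after thinning, when their shares rested on 2 to 5 cells. Proximal tubule cells, which hold little Car15, had a UMI in 0.028% to 0.68% of cells without thinning, at median depths of 3298 to 11366 UMIs per cell beside 3447.5 to 13424 in the thick ascending limb.

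Within the thick ascending limb, cells with UMIs of only 1 of the tight junction claudins Cldn16 and Cldn10 were set apart, a split chosen after the values were seen. Cells with Cldn16 alone held 86.3 and 104 CPM of Car15 in naive, 1203 and 284 CPM in rejecting, and 36.1 and 67.7 CPM in tolerized kidneys. Cells with Cldn10 alone held 19.0 and 24.0, 61.5 and 10.8, and 3.01 and 2.19 CPM. Car15 was higher in Cldn16 cells in 6 of 6 kidneys, by 4.34 to 30.9 times, and the order of the 3 groups was kept in Cldn16 cells. Foxq1, which encodes a transcription factor, followed the same split (220 to 330 CPM against 3.61 to 21.6 CPM). Foxq1 was also the gene most like Car15 over the 30 sums of 1 segment in 1 kidney, with Pearson's r of 0.859 among 9506 genes compared on log2(CPM + 1), followed by Klhdc8a (0.849), Cers4 (0.832), Sdc1 (0.829) and Plet1 (0.817). These sums share libraries and depth within a kidney. In the order of the groups Foxq1 did not resemble Car15, since its level in the thick ascending limb was 129 and 99.8 CPM in naive, 60.8 and 64.6 CPM in rejecting, and 42.4 and 50.7 CPM in tolerized kidneys, with naive kidneys highest.

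Intercalated cells of the intercalated cluster were divided in the same way by Slc26a4, the bicarbonate exchanger pendrin, and Slc4a1, the exchanger of acid-secreting cells. Cells with Slc26a4 alone held 116 and 76.4 CPM of Car15 in naive, 233 and 34.8 CPM in rejecting, and 5.68 and 22.3 CPM in tolerized kidneys. Cells with Slc4a1 alone held 8.10 and 0, 107 and 86.0, and 0 and 0 CPM, from only 3 to 34 cells per kidney. Car15 was higher in Slc26a4 cells in 5 of 6 kidneys, rejecting kidney 2 being the exception.

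**Figure D2:**
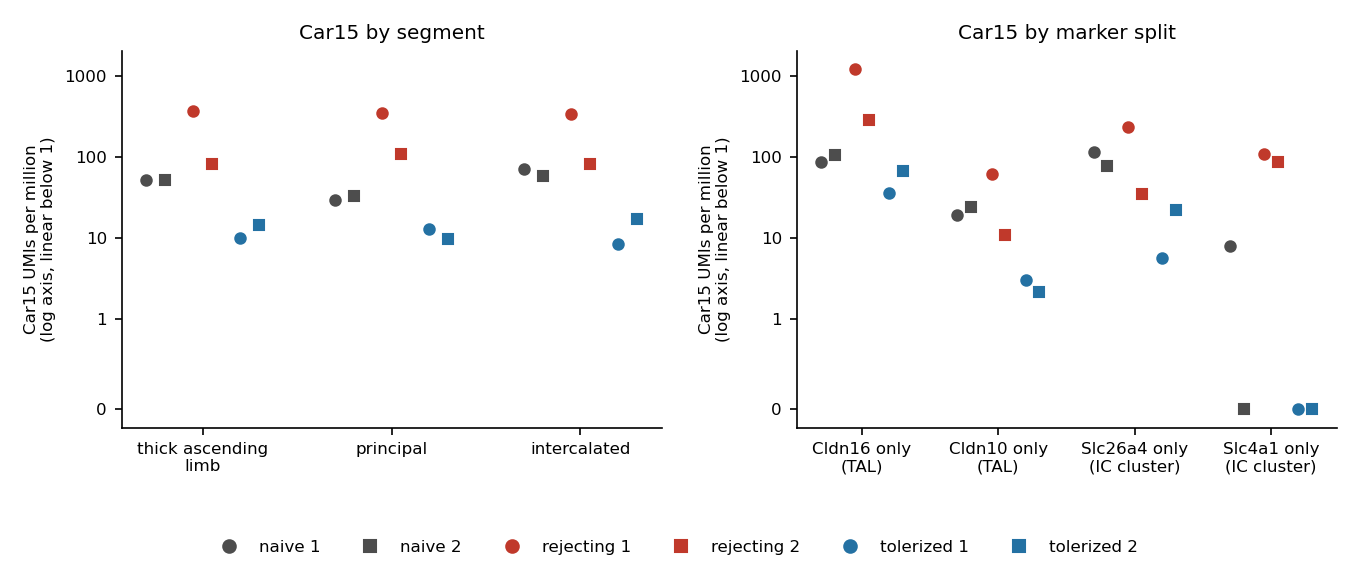
Car15 level (CPM, log axis that is linear below 1) in each kidney, by segment on the left and, on the right, in thick ascending limb cells (TAL) with Cldn16 or Cldn10 alone and cells of the intercalated cluster (IC) with Slc26a4 or Slc4a1 alone. Tolerized kidneys lie lowest and rejecting kidneys highest in each segment, and cells with Cldn16 alone lie above cells with Cldn10 alone in every kidney. Within the intercalated cluster alone, naive and rejecting kidneys overlapped.

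The Car15 row could share reads with another gene. Gm20518, at chr16:17835277-17891671 on the same strand, covers 1052 of the 1283 exonic bases of Car15, and how reads shared by 2 genes were counted is not given in the sources used here. Gm20518 had 2, 0, 33, 2, 6 and 6 UMIs in the thick ascending limb, few beside those of Car15. With the UMIs of both genes summed, rejecting kidneys still lay above tolerized kidneys in the 3 segments. With so few UMIs added, the sum could hardly change that order, and any reads counted for neither gene are not in it. The part of shared reads in the Car15 levels was not tested.

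The tolerized and rejecting kidneys were then compared for the other 7 members. Of 35 combinations of a member and a segment, 26 passed the filter on low counts and were tested with edgeR's quasi-likelihood test, with Benjamini-Hochberg adjustment over all genes of the segment to a false discovery rate (FDR). At an FDR of 0.05, 0 of the 26 were called, and DESeq2 also called 0. Among all genes tested, 0% were called in the proximal tubule, 0.423% in the thick ascending limb, 0.56% in the distal convoluted tubule, 0.234% in principal cells and 0.3% in intercalated cells. An unadjusted p under 0.05 was reached by 3 values, Car12 in the proximal tubule (log2 fold change 0.73, FDR 0.230), Car14 in the proximal tubule (0.86, FDR 0.318) and Car2 in the distal convoluted tubule (1.38, FDR 0.535). With no filter on low counts, these 3 values passed the FDR. The shares of all genes given above belong to the filtered fit. The share called without the filter is not given here, so these 3 calls are not set against genes in general. Among all genes past the filter, an unadjusted p under 0.05 was reached by 1424 of 12636 in the proximal tubule. In the distal convoluted tubule it was reached by 827 of 10354. Both tolerized kidneys lay above both rejecting kidneys for Car12 and Car14, whereas the groups overlapped for Car2.

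Against naive kidneys, members were called more often. For rejecting kidneys 15 of the 26 values passed the FDR, of which 2 were higher and 13 lower, beside 12.9% called higher and 11% called lower among all gene and segment values tested. Called were 4 of 6 values in the proximal tubule, where 41.6% of all genes were called, 4 of 5 in the thick ascending limb (17% of all genes), 5 of 7 in the distal convoluted tubule (24.3%), 1 of 4 in principal cells (18.1%) and 1 of 4 in intercalated cells (11.8%). For tolerized kidneys 11 of the 26 passed, of which 1 was higher and 10 lower, beside 10.1% and 9.03% of all values. These were 3 of 6 in the proximal tubule (31.6% of all genes), 2 of 5 in the thick ascending limb (11.6%), 3 of 7 in the distal convoluted tubule (18.8%), 1 of 4 in principal cells (18.3%) and 2 of 4 in intercalated cells (9.66%). The rejecting and tolerized comparisons share the naive kidneys, and members that entered only through high naive levels are among those counted. Also counted are calls of Car2 (rejecting kidneys only), Car4 and Car14 in the distal convoluted tubule and of Car4 in principal cells. In both naive kidneys these levels were below those of leukocytes of the same kidney. Car3 in the distal convoluted tubule was above leukocytes in only 1 naive kidney.

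**Figure D3:**
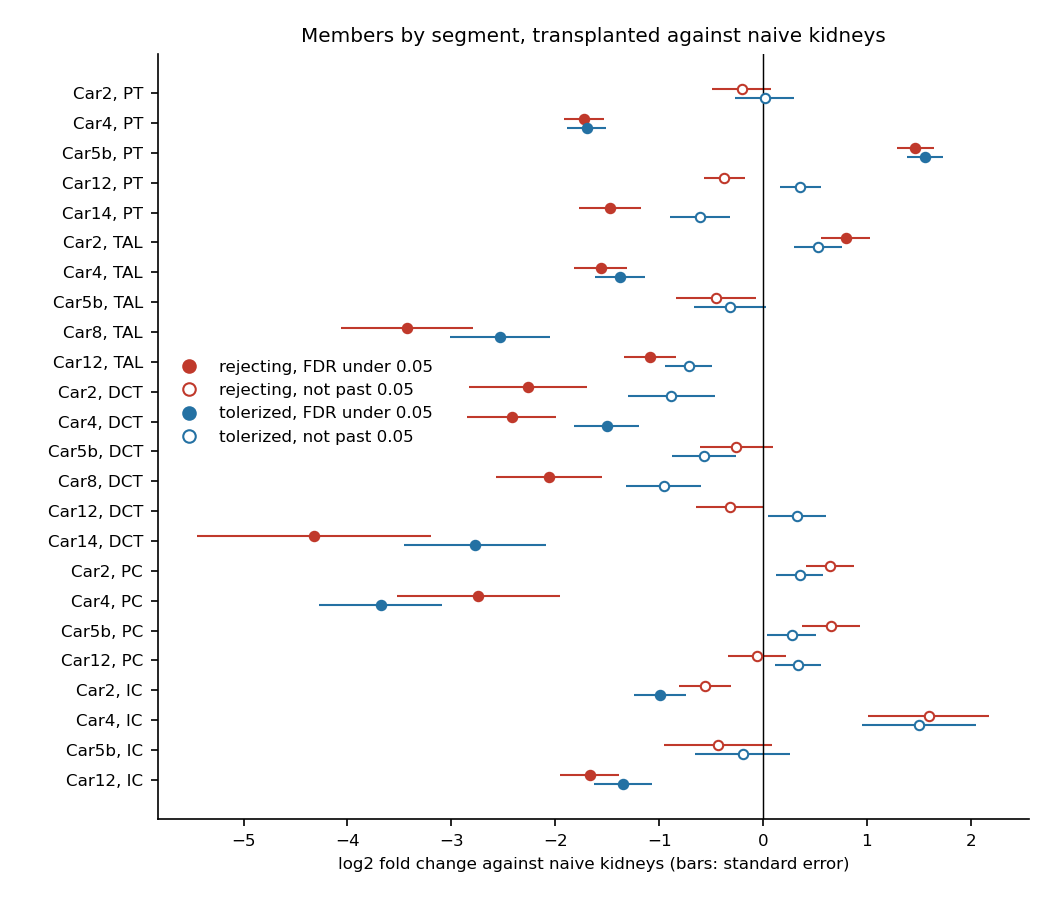
Fitted log2 fold changes against naive kidneys for members by segment, with rejecting and tolerized kidneys side by side, bars of 1 standard error, and filled points for an FDR under 0.05. Car3 and Car15 are left out, and most filled points lie to the left of 0, with Car5b in the proximal tubule and Car2 in the thick ascending limb to the right. Naive levels of Car2, Car4 and Car14 in the distal convoluted tubule and of Car4 in principal cells were below those of naive leukocytes.

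Car2, the cytosolic enzyme with its highest median in intercalated cells, was called against naive kidneys in the thick ascending limb and distal convoluted tubule of rejecting kidneys and in intercalated cells of tolerized kidneys. In principal cells its level was 722 and 726 CPM in naive, 1173 and 1138 CPM in rejecting, and 817 and 919 CPM in tolerized kidneys. No groups overlapped, but neither comparison with naive kidneys passed (log2 fold change 0.65, FDR 0.0647 for rejecting and 0.35, FDR 0.311 for tolerized kidneys). Car2 differed between the clusters of these cells. In cluster 22 it was 736 and 725 CPM in naive kidneys, 924 CPM in rejecting kidney 2, and 781 and 808 CPM in tolerized kidneys, and in cluster 30, which held few naive cells, 1388 CPM in rejecting kidney 2 and 881 and 1225 CPM in tolerized kidneys. In the thick ascending limb Car2 was 145 and 189 CPM in naive, 263 and 364 CPM in rejecting, and 277 and 234 CPM in tolerized kidneys, and it rose in rejecting kidneys (log2 fold change 0.80, SE 0.24, FDR 0.0330). With at most 20% mitochondrial UMIs per cell that value was 0.12 (FDR 0.907), and it did not pass when naive kidney 1, naive kidney 2 or rejecting kidney 2 was left out. Car2 was lower in Cldn16 cells than in Cldn10 cells of the thick ascending limb in 6 of 6 kidneys, with 86.8 to 206 CPM against 175 to 535 CPM.

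In intercalated cells Car2 was 1783 and 1615 CPM in naive, 1303 and 1161 CPM in rejecting, and 832 and 919 CPM in tolerized kidneys. It fell in tolerized kidneys (log2 fold change -0.99, SE 0.25, FDR 0.0229) and did not pass in rejecting kidneys (-0.56, FDR 0.160). Among gate-positive cells of the intercalated cluster alone, the levels were 1952 and 1749, 1873 and 1848, and 1302 and 1499 CPM, and the tolerized value was -0.50 (FDR 0.248). In that cluster naive and rejecting kidneys overlapped, and tolerized kidneys lay below both. The call was also lost with at most 20% mitochondrial UMIs, with a gate of 3 UMIs, with no gate, and without naive kidney 1, naive kidney 2 or tolerized kidney 1.

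The proximal tubule held 278 and 315 CPM of Car2 in naive, 293 and 405 CPM in rejecting, and 269 and 432 CPM in tolerized kidneys, which overlapped in every pair. With all clusters of the distal convoluted tubule summed, Car2 was below the level in leukocytes of the same kidney in 6 of 6 kidneys. Its call in rejecting kidneys (-2.26, FDR 0.0108) lies in that range. That call was lost without naive kidney 2 or rejecting kidney 2. The clusters differed, among kidneys with at least 30 cells in each. In cluster 26 Car2 was 26.14 and 48.09 CPM in naive kidneys. There it was 93.96 CPM in rejecting kidney 1 and 131.85 and 122.35 CPM in tolerized kidneys, each above leukocytes of that kidney. Cluster 18 held 20.64 and 41.37 CPM in naive kidneys, and cluster 25 held 3.22 and 3.92 CPM in rejecting kidneys. Car2 was not tested within these clusters.

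The gate itself admitted different cells in the 3 groups. Of 467 gate-positive cells 309 came from the intercalated cluster, and 81 came from the thick ascending limb, 31 from the distal convoluted tubule and 46 from collecting duct clusters. The thick ascending limb supplied 1 and 2 gate-positive cells in the naive pair, 14 and 16 in the rejecting pair, and 21 and 27 in the tolerized pair. Among all 467, 94 passed the gate through Atp6v0d2 only, with no UMI of Atp6v1g3. Listed by kidney, from naive 1 to tolerized 2, such cells numbered 1, 0, 14, 19, 24 and 36. Whether cells with Atp6v0d2 only were intercalated cells was not tested. Slc12a1, the sodium transporter of the thick ascending limb, was 125 and 65.2 CPM in naive intercalated cells and 990.5 to 1510 CPM in the transplanted ones, and was at most 72.9 CPM in gate-positive cells of the intercalated cluster alone. Car15 in the gate-positive thick ascending limb cells reached 759 CPM in rejecting kidney 1. In the intercalated cluster alone Car15 was 76.9 and 66.6, 171 and 46.8, and 4.83 and 16.4 CPM, so that the naive and rejecting kidneys overlapped and the tolerized kidneys stayed lowest.

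Gate-positive cells made up 8.24% (95% exact binomial interval 6.81 to 9.85%) and 4.40% (3.31 to 5.72%) of distal tubular cells in naive kidneys, 10.9% (8.45 to 13.8%) and 10.7% (8.09 to 13.7%) in rejecting kidneys, and 7.85% (6.11 to 9.90%) and 9.85% (8.27 to 11.6%) in tolerized kidneys. The means differed by -1.94 percentage points between tolerized and rejecting kidneys, with p = 0.33 in a two-sided exact permutation test. That is the smallest p that 2 kidneys against 2 can give. The intervals cover counting error only. Cells that passed the gate through Atp6v0d2 only are included in these shares. With a gate of 1 UMI the shares were 10.6% to 22.0%, and with a gate of 3 UMIs 3.74% to 8.59%. Cluster 14, left unnamed for a tie of thick ascending limb and distal convoluted tubule markers, was not among the distal tubular cells. It held 0 and 4 naive, 513 and 97 rejecting, and 124 and 298 tolerized cells. At a clustering resolution of 0.8 instead of 1.5, distal tubular cells of rejecting kidney 1 numbered 1060 instead of 559. The shares were then 8.26% and 4.40%, 5.94% and 8.94%, and 6.95% and 8.16%.

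**Figure D4:**
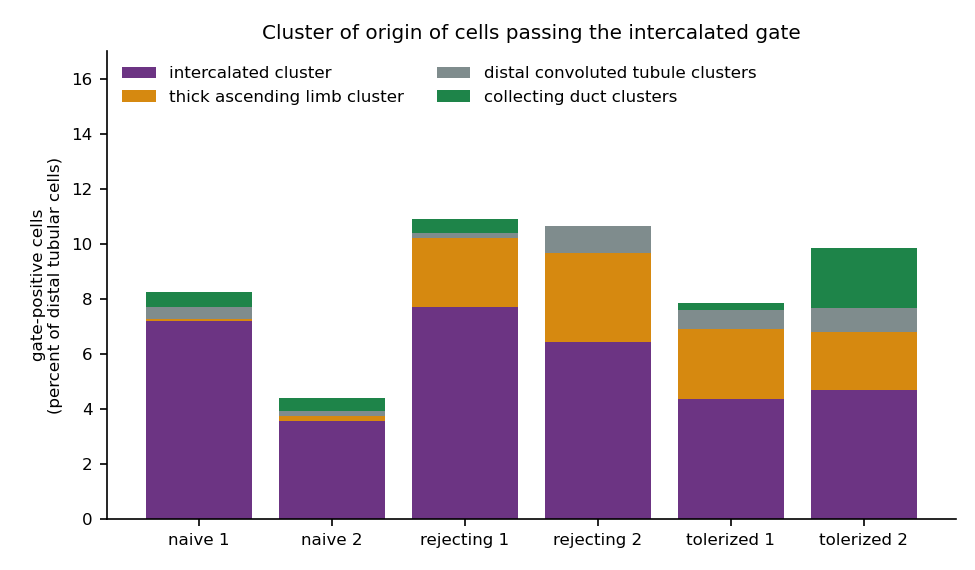
Gate-positive cells as a percentage of distal tubular cells in each kidney, stacked by the cluster they came from. The intercalated cluster supplied 95 of 109 and 43 of 53 gate-positive cells in the naive kidneys, and 36 of 65 and 60 of 126 in the tolerized kidneys.

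Car12, a membrane-spanning enzyme with its active site outside the cell, fell in intercalated cells of both transplanted groups. Its level was 1068 and 1497 CPM in naive, 419 and 439 CPM in rejecting, and 641 and 396 CPM in tolerized kidneys (log2 fold changes -1.67, SE 0.29, FDR 0.00200, and -1.35, SE 0.28, FDR 0.00868). Both groups lay below the naive kidneys. In the intercalated cluster alone the levels were 1180 and 1705, 608 and 708, and 1045 and 786 CPM, where the call in rejecting kidneys held and that in tolerized kidneys did not (-0.75, FDR 0.118). The tolerized call was also lost with at most 20% mitochondrial UMIs, with no gate, and without naive kidney 2 or tolerized kidney 2. Cells with Slc26a4 alone held 861 to 2034 CPM of Car12 and cells with Slc4a1 alone 189 to 1273 CPM, the former higher in 5 of 6 kidneys.

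Elsewhere Car12 was lower in the thick ascending limb of rejecting kidneys, with 67.2 and 78.1 CPM in naive, 36.2 and 37.2 CPM in rejecting, and 41.3 and 51.2 CPM in tolerized kidneys. The rejecting value passed (log2 fold change -1.09, SE 0.25, FDR 0.00900) and the tolerized value did not (-0.72, FDR 0.0583). With at most 20% mitochondrial UMIs the rejecting value was -0.24 (FDR 0.823), and it did not pass without naive kidney 2 or rejecting kidney 2. The proximal tubule held 96.6 and 92.4, 109 and 88.5, and 129 and 157 CPM, with both tolerized kidneys above the other 4 and no call against naive kidneys (0.36, FDR 0.195).

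Car4, the lipid-anchored enzyme of the brush border, fell in the proximal tubule of both transplanted groups. Its level was 194 and 238 CPM in naive, 90.2 and 86.8 CPM in rejecting, and 95.3 and 64.3 CPM in tolerized kidneys (log2 fold changes -1.72, SE 0.19, FDR 0.000381, and -1.70, SE 0.19, FDR 0.000482). Each transplanted kidney was below each naive kidney, the rejecting and tolerized kidneys overlapped, and both calls held under every alternative tried.

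In the thick ascending limb Car4 was 106 and 152 CPM in naive, 47.2 and 46.5 CPM in rejecting, and 62.3 and 43.7 CPM in tolerized kidneys. It fell in both groups (-1.56, FDR 0.00110, and -1.38, FDR 0.00218), and the tolerized call was lost with at most 20% mitochondrial UMIs (FDR 0.0941). These levels were above leukocytes of the same kidney in 6 of 6 kidneys. Leukocytes held 43.9 and 36.5 CPM of Car4 in naive kidneys and 0.79 to 2.67 CPM in transplanted ones. Slc34a1, a proximal tubule marker, was 130 and 423 CPM in naive thick ascending limb cells and 6.20 to 55.6 CPM in transplanted ones. The part of free RNA in this fall was not tested. Car4 was also called lower in distal convoluted tubule and principal cells of both groups, where the naive levels of 12.6 to 25.2 CPM were under the 43.9 and 36.5 CPM of pooled naive leukocytes (10 and 20 UMIs), so that these levels were not told apart from free RNA. Without naive kidney 2 the call in the tolerized distal convoluted tubule was lost, and the call in rejecting principal cells was lost without naive kidney 1, naive kidney 2 or rejecting kidney 2, with called doublets kept and with DESeq2. Intercalated cells held 7.14 and 7.52, 12.6 and 34.4, and 20.6 and 21.9 CPM of Car4 and were not called. In the intercalated cluster alone these were 5.30 and 5.79, 0 and 0, and 1.21 and 2.99 CPM, the reverse order of naive and transplanted kidneys.

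Car14, another membrane-spanning enzyme, was 74.7 and 92.4 CPM in the naive proximal tubule, 31.4 and 50.7 CPM in rejecting, and 51.3 and 76.9 CPM in tolerized kidneys. It fell in rejecting kidneys (log2 fold change -1.47, SE 0.30, FDR 0.00598), a call that held under every alternative, and tolerized kidneys overlapped the naive kidneys (-0.61, FDR 0.144). In the distal convoluted tubule Car14 was at most 9.59 CPM, under the level in naive leukocytes, although called lower in both groups. Both of these calls were lost without naive kidney 2 and with DESeq2, the rejecting call also without rejecting kidney 2 and the tolerized call also without tolerized kidney 1.

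Car5b, the mitochondrial enzyme, was the only member called higher than naive kidneys in both groups in any segment. In the proximal tubule its level was 18.6 and 23.1 CPM in naive, 70.4 and 85.3 CPM in rejecting, and 78.2 and 67.7 CPM in tolerized kidneys (log2 fold changes 1.47, SE 0.18, FDR 0.000586, and 1.56, SE 0.18, FDR 0.000530). Every transplanted kidney was above both naive kidneys, and both calls held under every alternative. Car5b in principal cells was 28.0 and 27.8, 42.6 and 45.9, and 40.2 and 25.5 CPM, and the difference in rejecting kidneys did not pass (0.66, FDR 0.111). In cluster 22 alone it was 28.1 and 27.9 CPM in naive kidneys, 24.6 CPM in rejecting kidney 2, and 23.4 and 16.9 CPM in tolerized kidneys, so that no transplanted kidney measured there lay above the naive kidneys. In cluster 30 it was 70.9 CPM in rejecting kidney 2 and 70.1 and 49.4 CPM in tolerized kidneys.

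Car3, a cytosolic protein of low enzyme activity, was found in naive kidneys and was nearly absent from transplanted ones. The naive proximal tubule held 99.7 and 146 CPM, or 4298 UMIs in all, and the 4 transplanted kidneys held 3 UMIs together. The ratio of the pooled levels was 3723, with an interval of 1273 to 18060 that covers counting error only. Naive kidneys also differed in strain, age and the gene list used for counting, and the part of each in this difference was not tested. In the thick ascending limb the pooled naive level was at least 79.6-fold higher and in the distal convoluted tubule at least 44.8-fold higher than the limit that 3 UMIs over the 4 transplanted kidneys would set. Naive levels in these segments, 3.91 and 39.1 CPM in the thick ascending limb and 9.71 and 14.0 CPM in the distal convoluted tubule, were near those of pooled naive leukocytes (8.78 and 34.7 CPM, from 2 and 19 UMIs).

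Car8, the member without catalytic activity, fell in the thick ascending limb of both transplanted groups. It was 18.7 and 20.2 CPM in naive, 3.23 and 0.62 CPM in rejecting, and 5.00 and 2.48 CPM in tolerized kidneys (log2 fold changes -3.43, SE 0.64, FDR 0.00252, and -2.53, SE 0.48, FDR 0.00395). No transplanted kidney reached the naive levels, and the tolerized call was lost with at most 20% mitochondrial UMIs (FDR 0.0931) and without naive kidney 1 or tolerized kidney 2. In the distal convoluted tubule Car8 was 9.16 and 12.8, 1.48 and 4.34, and 8.11 and 4.78 CPM, called lower in rejecting kidneys (-2.06, FDR 0.00961) and not in tolerized kidneys (-0.96, FDR 0.0797). The rejecting call was lost without naive kidney 2 or rejecting kidney 1.

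The proximal members also differed along the proximal tubule itself. Cells with UMIs of Slc5a2 alone, a glucose transporter of the early segment, were set against cells with Slc7a13 alone, an amino acid transporter of the late segment, in a split chosen after the values were seen. Car2 was higher in Slc5a2 cells in 6 of 6 kidneys (416 to 542 CPM against 80.4 to 283 CPM), and so were Car12 (147 to 227 CPM against 39.1 to 64.5 CPM) and Car14 (54.8 to 144 CPM against 14.7 to 65.5 CPM). Car4 was higher in Slc7a13 cells in 6 of 6 kidneys, with 105 to 301 CPM against 30.8 to 159 CPM. Naive Car3 was 234 and 324 CPM in Slc5a2 cells and 8.31 and 22.3 CPM in Slc7a13 cells.

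The differences from naive kidneys were present in both kinds of proximal cell. In Slc5a2 cells Car4 was 112 and 159 CPM in naive, 64.0 and 58.6 CPM in rejecting, and 55.7 and 30.8 CPM in tolerized kidneys, and in Slc7a13 cells 260 and 301, 108 and 105, and 119 and 125 CPM. Car5b was 21.8 and 26.7 CPM in naive Slc5a2 cells and 68.3 to 87.8 CPM in transplanted ones, and 16.0 and 19.0 CPM against 64.6 to 78.0 CPM in Slc7a13 cells. Transplanted and naive kidneys did not overlap in either kind of cell for either gene.

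**Figure D5:**
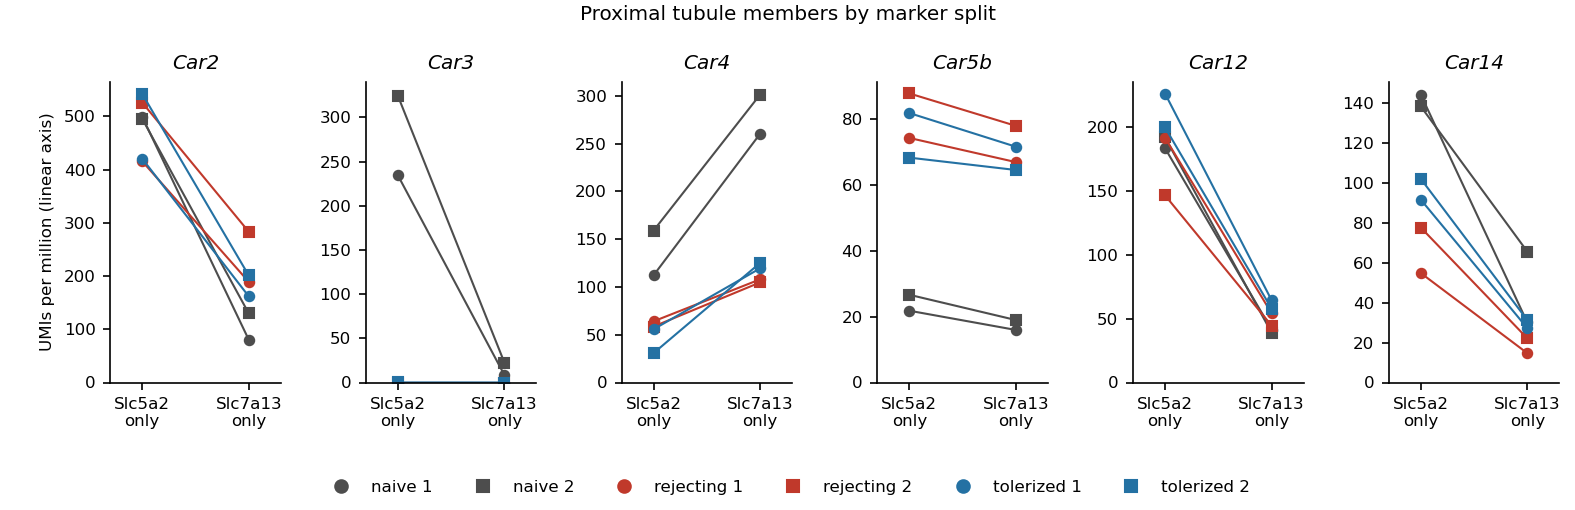
Levels of carbonic anhydrases (CPM, linear axes) in proximal tubule cells with UMIs of Slc5a2 alone or of Slc7a13 alone, 1 point per kidney coloured by group. Car12 and Car14 are higher in Slc5a2 cells and Car4 in Slc7a13 cells of every kidney, and Car5b separates naive from transplanted kidneys in both.

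Among the other carbonic anhydrase genes, 4 passed the filter, in the proximal tubule alone. Car13, which encodes a further cytosolic enzyme, was 1.05 and 0.86 CPM in naive, 4.76 and 5.14 CPM in rejecting, and 4.67 and 2.91 CPM in tolerized kidneys and rose in both (log2 fold changes 1.91, FDR 0.00377, and 1.71, FDR 0.00734). Car9, a membrane-spanning enzyme, was 5.93 and 3.30, 12.7 and 12.6, and 12.9 and 17.3 CPM and rose in both (0.99, FDR 0.0364, and 1.45, FDR 0.00977). Car7 and Car5a were tested and not called, and Car1, Car6, Car10 and Car11 did not pass the filter in any segment.

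A list of 50 acid-base partners, mainly bicarbonate and proton transporters, pump subunits and ammonium channels, was counted beside the family. In rejecting against naive kidneys, 9 were higher and 12 lower of 39 tested in the proximal tubule, 1 higher and 9 lower of 29 in the thick ascending limb, 1 and 10 of 30 in the distal convoluted tubule, 0 and 7 of 31 in principal cells, and 2 and 12 of 39 in intercalated cells. Over all genes tested, the shares called in either direction were 41.6%, 17%, 24.3%, 18.1% and 11.8% in the same order of segments. In tolerized against naive kidneys, the counts were 8 and 6, 1 and 3, 1 and 5, 0 and 4, and 1 and 12, beside 31.6%, 11.6%, 18.8%, 18.3% and 9.66% of all genes. The median log2 fold change of the list in intercalated cells was -0.50 for rejecting and -0.58 for tolerized kidneys, beside -0.00071 and 0.0066 over all genes. In the intercalated cluster alone 1 partner was called higher and 8 lower of 37 in rejecting kidneys (8.23% of all genes), and 0 higher and 6 lower in tolerized kidneys (6.48%), with medians of -0.52 and -0.35. Lower and higher members were most even in the proximal tubule.

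The partners with the lowest FDR against naive kidneys included Rhbg, an ammonium channel, which in intercalated cells was 838 and 554 CPM in naive, 188 and 163 CPM in rejecting, and 184 and 259 CPM in tolerized kidneys (log2 fold changes -2.09, FDR 0.000383, and -1.69, FDR 0.00183). Both calls of Rhbg held in the intercalated cluster alone, at -1.54 (FDR 0.00452) and -1.18 (FDR 0.0210). Atp4a, a subunit of the proton-potassium pump, fell in principal cells from 236 and 149 CPM to 2.03 and 6.12 CPM in rejecting and 8.29 and 12.0 CPM in tolerized kidneys. Slc9a3, the sodium-proton exchanger that shares the recovery of bicarbonate with Car4, was 0.43 and 0.066 CPM in the naive proximal tubule, 42.2 and 48.5 CPM in rejecting, and 35.8 and 43.2 CPM in tolerized kidneys. The naive matrices were counted on a different gene list, whose part in these values was not tested.

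Between tolerized and rejecting kidneys, 0 of the partners were called in any segment. The lowest FDR was that of Aqp6, a channel of acid-secreting intercalated cells, with 450 and 376 CPM in naive, 531 and 258 CPM in rejecting, and 51.2 and 142 CPM in tolerized intercalated cells (log2 fold change -1.93, FDR 0.0933). The intercalated cluster alone gave -1.54 (FDR 0.611), and 0 of 37 partners were called there, beside 0.0135% of all genes. Both tolerized kidneys lay below the other 4, as for Car15, and the difference did not pass the test.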

How the data were processed

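The authors deposited 1 matrix of raw UMI counts per kidney, without normalization, and the submitters' processing notes name Cell Ranger, bcl2fastq and mm10. The transplanted matrices carry Cell Ranger 3.0.1 in their headers, and the version for naive kidneys is not given in the sources used here. Barcodes under 500 UMIs or 250 genes, or above 50% mitochondrial UMIs, were removed, and doublets scored by Scrublet (scanpy 1.11.5) were left out up to 0.8% per 1000 barcodes. Cells were clustered (Leiden, resolution 1.5) on 2500 variable genes without the carbonic anhydrases. Clusters needed 3 markers for a name, and 37 of 43 were named.

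Summed counts per kidney and segment passed through filterByExpr and TMM scaling, and 1 fit of 6 kidneys per segment gave the quasi-likelihood test (edgeR 4.0.16, R 4.3.3). TMM scaling means that a fitted fold change can differ from the ratio of CPM. Samples of a group are separate kidneys. The code was tested on simulated data. DESeq2 1.42.0 was an alternative. Between 76 and 120 barcodes per library occurred in another library.

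The members and gene lists were chosen with earlier results of these data known. Named genes are the 8 members, family genes past the filter, and the partners with the lowest FDR. Coordinates are mm10, GENCODE M21.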

Additional observations from a re-analysis of the deposited data

Results flagged for a closer look

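Car2 levels lay above both naive kidneys in some segments and below both in another, which is given here as values and was not tested between segments. In rejecting kidneys the log2 fold change was 0.65 in principal cells, 0.80 in the thick ascending limb and -0.56 in intercalated cells. Of these only 0.80 passed an FDR of 0.05. In tolerized kidneys it was 0.35, 0.53 and -0.99 in the same segments, and only -0.99 passed. The distal convoluted tubule was left out here because its Car2 was below leukocytes in every kidney. Its value in rejecting kidneys (-2.26), also below both naive kidneys, was called. The call of 0.80 was lost under 4 of 19 alternatives and that of -0.99 under 7 of 19. In the intercalated cluster alone the rejecting kidneys overlapped the naive kidneys.

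Car12 in tolerized kidneys had log2 fold changes of 0.34 in principal cells and 0.36 in the proximal tubule, and of -1.35 in intercalated cells and -0.72 in the thick ascending limb, with both kidneys on the same side of both naive kidneys in each. Only -1.35 passed, it was -0.75 and did not pass in the intercalated cluster alone (FDR 0.118), and the difference between segments was not tested.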

How the results depend on the processing

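Of the 26 called member values, 12 were called under every alternative in which they were tested. For Car4 in tolerized principal cells these were 18 alternatives instead of 19. Another 3 were lost only when a kidney was left out, 11 were lost under another alternative, and 0 changed direction. The number of members called between tolerized and rejecting kidneys was 0, and 3 with no filter on low counts. Against naive kidneys the tolerized count of 11 became 18 with no filter and 5 with at most 20% mitochondrial UMIs. That limit kept 35 of 233 and 23 of 204 naive thick ascending limb cells, and 74 to 136 cells in each transplanted kidney. It kept 18 of 109 and 10 of 53 naive intercalated cells, and 24 to 38 in each transplanted kidney. Without the filter more member values are tested. The shares called over all genes under the alternatives are not given here, so these counts are not set against genes in general. Leaving out 1 kidney at a time gave 0 to 1 for tolerized against rejecting (1 without tolerized replicate 1, Car2 in the distal convoluted tubule), 9 to 18 for rejecting against naive (9 without naive replicate 2) and 7 to 14 for tolerized against naive (7 without naive replicate 2). Over the same fits, Car15 in tolerized against rejecting kidneys ranged from -4.83 to -2.63 in the thick ascending limb, -4.80 to -3.18 in principal cells and -4.56 to -2.51 in intercalated cells.

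The difference in the intercalated share turned to 0.14 points between tolerized and rejecting kidneys with a gate of 1 UMI and to 0.11 at a resolution of 0.8, and to -0.86 points between tolerized and naive kidneys in the intercalated cluster alone and -1.05 after thinning. Leaving out a kidney gave -2.94 to -0.94, 2.55 to 6.39 and 0.61 to 4.45 points for tolerized against rejecting, rejecting against naive and tolerized against naive kidneys. The cause was not tested.

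Kidneys of the same replicate number deviated together little over genes. Between rejecting and tolerized kidneys r was 0.0101 to 0.0965, and for pairs with a naive kidney it was -0.114 to -0.0185. The numbers were not used as pairs. The authors mark each kidney by experiment number, and whether these match the replicate numbers is not given in the sources used here. With a replicate block 0, 15 and 14 members were called in the 3 comparisons, against 0, 15 and 11 without it, and with the naive numbers crossed 0, 15 and 11. The intercalated cluster alone, the summed UMIs of Car15 and Gm20518, the crossed block and the thinning were chosen after the data were seen. The lowest sums were those of intercalated cells, with 398879 to 3014812 UMIs per kidney, and of principal cells, with 492585 to 5168068.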
